A study of Mus musculus with 16 samples.

Results

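Clostridia_UCG-014 is a family-level group of anaerobic gut bacteria in the class Clostridia, known mainly from 16S rRNA gene surveys. Its members here were all amplicon sequence variants (ASVs, exact 16S sequences left after sequencing errors are removed) whose family name in the feature table is Clostridia_UCG-014. They numbered 69 of 1330 ASVs and held 131284 of 948231 reads (13.8%), which made the family the 4th by reads. The 16 stool libraries fall into 4 groups of 4: healthy wild-type (WT), healthy Msc knock-out (KO), DSS-treated WT and DSS-treated KO mice, the healthy ones taken at time point 0 and those with DSS colitis at time point 1. Musculin, the product of Msc, is a transcription factor of the basic helix-loop-helix family, and DSS (dextran sulfate sodium) is a polymer that injures the lining of the colon when mice drink it. The question was what loss of Msc does to the stool microbiota with and without colitis.

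The mouse strain, age, sex, cage, the kind of Msc allele, the cells that lack it and the DSS dose are not given in the sources used here. All DSS libraries come from the later time point, so DSS and the later date cannot be told apart, nor can genotype and cage. Whether equal replicate numbers mean equal animals is not stated. Groups were treated as independent, and p-values measure only the spread between these samples. The 4 comparisons of groups share libraries pairwise (healthy KO mice, for example, enter both the genotype comparison in health and the DSS comparison in KO mice), so their values are given side by side and not counted as separate evidence.

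Most groups of uncultured gut Clostridia are known from 16S sequences more than from cultured strains, and ferment what the host and other bacteria leave in the colon. The 16S rRNA gene carries conserved stretches, to which primers bind, and variable stretches, such as V3 and V4, by which bacteria are told apart. An ASV is therefore finer than a genus but is not a strain: 1 bacterium can carry several copies of the gene with different letters, and different strains can share an ASV. The deposited tables identify each ASV by a code and give no letters, so the members are named here by rank, asv5 being the member with the most reads and the number its place among all ASVs by total reads.

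The taxonomy of the members was uniform. All 69 were placed in Firmicutes and Clostridia, with Clostridia_UCG-014 as order, family and genus, and the separate taxonomy table gave all 69 the same family. At the species rank 41 had no entry, 14 were unidentified and 11 were called uncultured_bacterium, and the remaining 3 carried the names uncultured_rumen (asv16), uncultured_Acetivibrio (asv41) and uncultured_Clostridiales (asv51). The confidence of the assignment, a fraction between 0 and 1, ranged from 0.711 to 1 with a median of 1, and it reached 0.95 in 48 members. The most abundant pair had low values within that range, 0.783 for asv5 and 0.741 for asv6.

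Libraries held 49253 to 70577 reads, and 3 reads, the most that a count of 0 allows, amount to 0.00425% to 0.00609% of a library. That limit and every fold given as "at least" cover counting error only, since PCR reads are not independent molecules. WT DSS replicate 1 stood apart, with 844 ASVs against 172 to 280 in the other libraries, and 711 of its ASVs were seen nowhere else. None of those 711 was a Clostridia_UCG-014 sequence (0 of 69 members). Replicates of a group differed by far more than counting error, the chi-square of replicate pairs over the members being 28.9 to 300.1 times its degrees of freedom. Shares are shares of a library's reads, so a rise in one group of bacteria lowers the share of the others, and fewer cells of a bacterium cannot be told apart from fewer 16S copies per cell.

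The summed share of the family was lowest in healthy KO mice. In healthy WT mice it was 21.5%, 16.1%, 11.2% and 12.2% in replicates 0 to 3. In healthy KO mice it was 6.17%, 4.25%, 4.01% and 6.98%. Every healthy KO library lay below every library of the other 3 groups. In WT mice with DSS it was 14.7%, 18.5%, 22.6% and 20.7%, and in KO mice with DSS 15.8%, 9.43%, 16.7% and 17.9%, so that these groups overlapped with each other and with healthy WT mice. Wilson 95% intervals of these values reached at most 0.342 percentage points to either side. The means were 15.3% ± 4.65, 5.35% ± 1.46, 19.1% ± 3.36 and 15% ± 3.80 (SD, n = 4), in the order healthy WT, healthy KO, DSS WT and DSS KO.

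**Figure D1:**
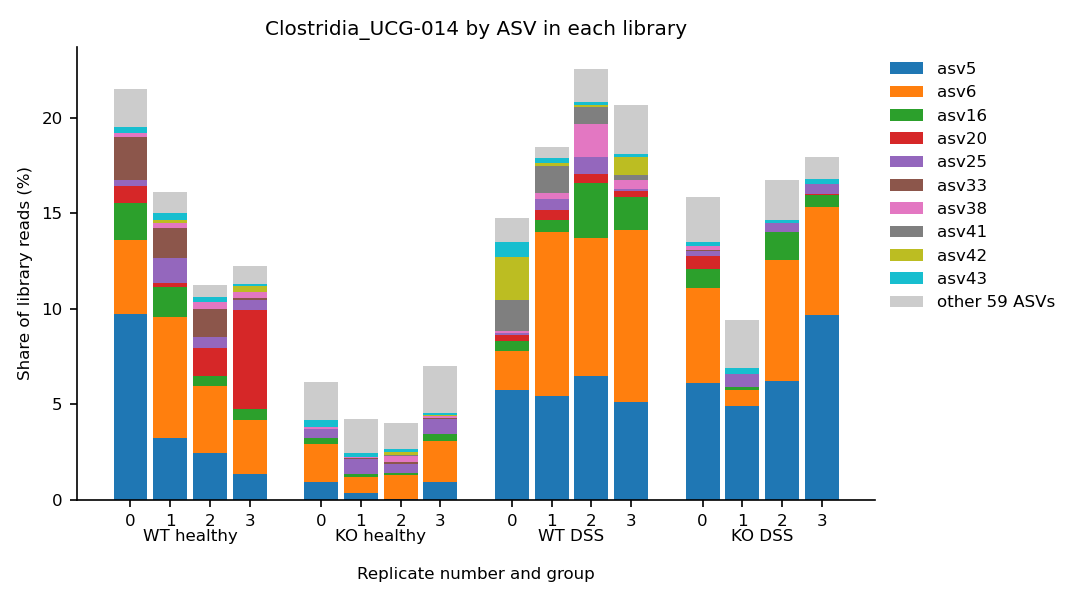
Share of library reads (%) held by Clostridia_UCG-014 in each of the 16 libraries (bars, grouped by genotype and condition, replicate number under each bar). Colours mark the 10 most abundant members and grey the other 59. The 4 healthy KO bars, 4.01% to 6.98%, are the shortest, and the blue and orange segments (asv5 and asv6) are the widest in most libraries.

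The sum was tested as 1 of 26 families in an edgeR quasi-likelihood fit with Benjamini-Hochberg adjustment. The sum was higher with DSS in KO mice by 1.06 ± 0.31 on the log2 scale (SE, adjusted p = 0.00944), in a comparison in which 50.0% of the families passed the threshold of 0.05. This call held without each library in turn, and was missed with limma on centred log-ratios (0.57), with a filter of 20 reads (0.76) and in a fit of the KO libraries alone (0.83). In WT mice the DSS difference was 0.50 ± 0.30 (edgeR adjusted p = 0.219), with 26.9% of families passing. Between healthy KO and healthy WT mice the log2 fold change was -0.86 ± 0.31 and missed the threshold (edgeR adjusted p = 0.0517, 11.5% of families passing). It lay near the threshold and passed under 7 of 11 other settings: with total counts alone it was -1.51 (adjusted p = 0.000343), and with genera in place of families, tried after seeing the data, -1.27. Without KO healthy replicate 0, 1 or 2 it was -1.62, -1.50 or -1.63, and without WT healthy replicate 0 it was -0.59. Under DSS the KO value was -0.30 ± 0.30 against WT (edgeR adjusted p = 0.568, 11.5% of families passing). The interaction, that is the KO-to-WT difference with DSS less the same difference in health, was 0.56 ± 0.43 (edgeR adjusted p = 0.469, 15.4% of families passing), 1.16 with total counts alone (adjusted p = 0.0443) and 1.18 without KO healthy replicate 0 (adjusted p = 0.0438).

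Behind the sum stood few abundant and many rare sequences. In all 16 libraries reads were found of 5 members, asv5, asv6, asv16, asv25 and asv43, which carried 74.5% of the family's reads. The 13 members seen in all 4 groups carried 80.4%. At the other end, 20 members were seen in 1 library each and carried 0.718% together. The filter for a test, 5 or more reads in 4 or more libraries, was passed by 36 members with 97.9% of the family's reads. The other 33 held 2.12% and are described by presence only. Of the tested members, 23 had no read in at least 1 of the 4 groups.

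Members with reads per library numbered 22.5 ± 1.29 in healthy WT, 26.3 ± 1.26 in healthy KO, 20.5 ± 2.38 in DSS WT and 21.3 ± 4.03 in DSS KO mice (SD, n = 4), and thinning every library to 49253 reads left these means as they were. The group with the smallest summed share, healthy KO, thus held the most members, 43 over its 4 libraries against 36, 27 and 36 in healthy WT, DSS WT and DSS KO. Its reads were also spread most evenly: the inverse Simpson index within the family, the number of equally abundant members that would give the same evenness, was 7.33 ± 0.774 there, 4.41 ± 0.709 in healthy WT, 4.10 ± 0.736 in DSS WT and 3.29 ± 0.558 in DSS KO mice. The lowest healthy KO library (6.71) lay above the highest library of the other 3 groups (5.37). Together asv5 and asv6 made up 38.1% ± 9.16 of the family's reads in healthy KO, 52.5% ± 12.8 in healthy WT, 64.4% ± 9.87 in DSS WT and 72.8% ± 10.3 in DSS KO mice. These are descriptions over the members, with no test.

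**Figure D2:**
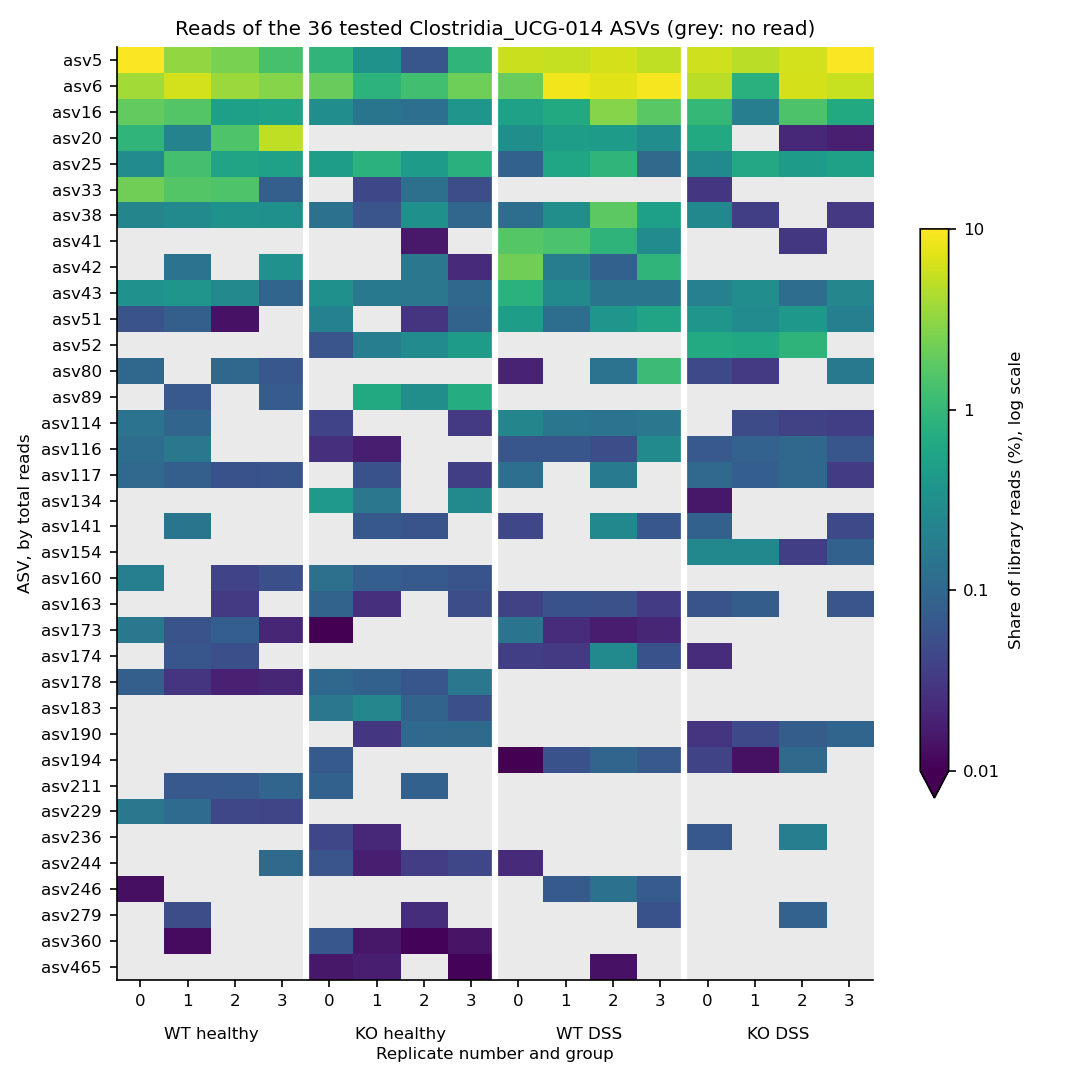
Share of library reads (%, colour on a log scale) of the 36 tested members (rows) in the 16 libraries (columns, by group and replicate). Grey cells hold no read. asv5, asv6, asv16, asv25 and asv43 are filled throughout, while asv33, asv160 and asv178 are grey in the 4 WT DSS columns and asv52 and asv190 in all 8 WT columns.

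The most abundant member, asv5, was low in healthy KO mice. It had 5820, 1595, 1586 and 884 reads in the healthy WT libraries and 538, 172, 36 and 512 in the healthy KO libraries, without overlap of their shares. With DSS it had 3487, 3194, 3716 and 3398 reads in WT and 4330, 2872, 3439 and 5863 in KO mice. Its mean share was 4.19% ± 3.78 in healthy WT, 0.563% ± 0.433 in healthy KO, 5.70% ± 0.574 in DSS WT and 6.74% ± 2.05 in DSS KO mice (n = 4). It rose with DSS in KO mice by 3.67 ± 0.81 on the log2 scale (edgeR adjusted p = 0.00424), a ratio of mean shares of 12, and this held without each of the 16 libraries in turn (3.44 to 4.32). It was lower in healthy KO than healthy WT mice by a log2 fold change of -2.86 ± 0.78 (edgeR adjusted p = 0.0404), a ratio of 7.44. That call rested on single libraries: it was lost without any of 11 of the 16 (all but WT healthy replicate 3 and the 4 WT DSS libraries), with log2 fold changes of -3.18 to -1.42, and the healthy WT mean was 2.35% without replicate 0. The healthy call of asv5 was also lost in a fit of the healthy libraries alone (-2.86, adjusted p = 0.121) and relative to the family's own reads (-1.38, adjusted p = 0.151).

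The next most abundant member, asv6, did not pass in any comparison. It had 2323, 3108, 2258 and 1904 reads in healthy WT and 1157, 439, 695 and 1197 in healthy KO libraries, and 1222, 5012, 4174 and 5988 in DSS WT and 3491, 468, 3531 and 3399 in DSS KO libraries. The means were 4.14% ± 1.5, 1.56% ± 0.616, 6.71% ± 3.21 and 4.43% ± 2.49 in that order. The healthy groups did not overlap, while 1 library of each DSS group (WT replicate 0, KO replicate 1) lay far below its group's other libraries. Its log2 fold changes were -1.16 between healthy KO and WT (edgeR adjusted p = 0.271), -0.97 under DSS (edgeR adjusted p = 0.341), 1.32 for DSS in WT (edgeR adjusted p = 0.125) and 1.51 for DSS in KO mice (edgeR adjusted p = 0.0665).

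The other 3 members found in every library passed no test either. The mean share of asv16 was 1.13% ± 0.722, 0.235% ± 0.120, 1.44% ± 1.09 and 0.823% ± 0.527 in healthy WT, healthy KO, DSS WT and DSS KO mice, and its lowest edgeR adjusted p was 0.0782, for DSS in KO mice (log2 fold change 1.80). The healthy groups did not overlap for asv16, which was lower in KO but missed the threshold (log2 fold change -2.13, edgeR adjusted p = 0.0998). The 4 groups overlapped for asv25 and for asv43. The first had 0.669% ± 0.445, 0.635% ± 0.202, 0.424% ± 0.398 and 0.472% ± 0.160, and the second 0.265% ± 0.123, 0.184% ± 0.0930, 0.345% ± 0.327 and 0.215% ± 0.0743 in the same order. A miss of the threshold with 4 libraries does not show that these members were equal between groups.

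Between healthy KO and healthy WT mice, 6 of the 36 tested members changed (edgeR, adjusted p under 0.05 over all 308 tested ASVs): asv52, asv183 and asv190 were higher in KO, and asv5, asv20 and asv229 lower. Of all tested ASVs 3.25% were called higher and 3.9% lower, against 8.33% of the tested members in each direction. The median log2 fold change was 0.01 over the tested members and -0.14 over all tested ASVs. Of the 6, asv5 and asv20 were by far the most abundant in healthy WT mice, and both were lower in KO.

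The loss of asv20 was the widest. It had 542, 108, 954 and 3466 reads in healthy WT libraries (1.96% ± 2.24) and no read in any healthy KO library. In KO its share was lower by a factor of at least 359 (edgeR adjusted p = 0.0183), and of at least 159 without WT healthy replicate 3, in which it was the leading member with 42.7% of the family's reads. Without KO healthy replicate 1 the test was missed (adjusted p = 0.0556). The rarer asv229 had 94, 55, 28 and 28 reads in healthy WT libraries (0.0886% ± 0.0560) and none in the other 12 libraries. The fall in healthy KO mice was at least 16.3-fold (edgeR adjusted p = 0.0401), and the call was lost without any 1 healthy KO library. It passed the filter through the healthy WT libraries alone, so none of those could be left out.

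On the other side, asv52 had no read in the 4 healthy WT libraries and 36, 98, 159 and 255 in the healthy KO libraries (0.249% ± 0.167). This made it at least 49.1-fold higher in KO (edgeR adjusted p = 0.0298), a call lost without WT healthy replicate 0 or 2 or KO healthy replicate 1 or 3. The reads of asv183 were 89, 123, 51 and 30 in healthy KO libraries (0.135% ± 0.0824) and 0 in the other 12, at least 26.6-fold higher in KO than in WT (edgeR adjusted p = 0.0209). It passed the filter through the healthy KO libraries alone, so none of them could be left out to check the call. With replicate number added to the fit the call of asv183 was lost (edgeR adjusted p = 0.107), as were those of asv52 (0.0812) and asv190 (0.103). For asv190 the healthy KO libraries had 0, 15, 60 and 61 reads (0.0615% ± 0.0553) and the healthy WT libraries none, at least 12.1-fold higher (edgeR adjusted p = 0.0401). This call was lost without any of 8 libraries (the 4 healthy WT, KO healthy replicates 1, 2 and 3, and KO DSS replicate 2). The healthy libraries fitted alone gave an adjusted p of 0.101 for asv190, and asv229 missed with no filter (0.0729) and relative to the family's reads (0.0510). The number of members called was itself unsteady: leaving out WT healthy replicate 0, 1 or 2 gave 2, 3 or 2 calls, and leaving out KO healthy replicate 1, 2 or 3 gave 0, 3 or 1. With none called, without KO healthy replicate 1, 11 members still had an unadjusted edgeR p under 0.05.

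By presence alone, 4 members were in all 4 libraries of one healthy group and none of the other: asv52 and asv183 in KO, asv20 and asv229 in WT. Over all tested ASVs 5.19% met this rule. In all 12 members were seen in healthy WT but not healthy KO mice and 19 the reverse. This looser count was not made over all ASVs, and the 5.19% does not apply to it. The first set made up 17.3% ± 18.5 of the family's reads in WT libraries, where asv20 set the spread (3.03% to 43.8%). The second made up 16.9% ± 2.52 of the family's reads in KO libraries.

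Under DSS, KO and WT mice differed in 6 members, 3 in each direction. Higher in KO were asv52, asv154 and asv190, and lower were asv41, asv42 and asv173 (edgeR). Among all tested ASVs 8.77% were higher and 6.17% lower, close to the 8.33% of members each way. The median log2 fold change was -0.38 over members and 0.00 over all tested ASVs. Of the 6, asv52 and asv190 were also called in health. The 2 genotype comparisons share no library, though they may share animals.

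Among the called members the largest loss by reads was asv41, a sequence named uncultured_Acetivibrio. It had 984, 829, 514 and 187 reads in DSS WT libraries (1.05% ± 0.600) and 0, 0, 17 and 0 in DSS KO libraries (0.00767% ± 0.0153), without overlap. Its log2 fold change was -7.68 ± 2.04 (edgeR adjusted p = 0.0232), a ratio of mean shares of 137, and the call was lost without KO DSS replicate 0, 1 or 3. DSS WT libraries had 1349, 108, 49 and 613 reads of asv42 (0.856% ± 0.990) and DSS KO libraries none, a fall of at least 173-fold (edgeR adjusted p = 0.0228), at least 80.4-fold without WT DSS replicate 0. That call was lost without KO DSS replicate 1, 2 or 3. For asv173 the reads were 87, 14, 10 and 14 in DSS WT and 0 in DSS KO libraries, a fall of at least 10.4-fold (edgeR adjusted p = 0.0132), at least 4.20-fold without WT DSS replicate 0. The more abundant asv38 had 73, 179, 1004 and 326 reads in DSS WT against 176, 21, 0 and 19 in DSS KO libraries and missed the threshold (log2 fold change -3.37, edgeR adjusted p = 0.0923).

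Of the gains, asv52 had 478, 360, 501 and 0 reads in DSS KO libraries (0.550% ± 0.387) and none in DSS WT, at least 111-fold higher (edgeR adjusted p = 0.0117) although KO replicate 3 lacked it. For asv154 the DSS KO libraries had 179, 147, 20 and 52 reads (0.157% ± 0.113), and no other library had any, at least 31.7-fold higher (edgeR adjusted p = 0.0132). The reads of asv190 were 20, 27, 43 and 57 in DSS KO libraries (0.0616% ± 0.0298), at least 12.4-fold higher (edgeR adjusted p = 0.0198). Its mean in healthy KO mice was nearly the same, 0.0615%. The calls of asv52 and asv190 held without each of the 16 libraries in turn. For asv154 none of the 4 DSS KO libraries could be left out, since it passed the filter through them alone. Leaving out libraries without its reads is no check of that call. With replicate number added to the fit the call of asv154 was lost (edgeR adjusted p = 0.0577). The number called fell to 3 without KO DSS replicate 1 and to 3 without replicate 3. By presence alone asv154 and asv190 were in all 4 DSS KO and no DSS WT library and asv42 and asv173 the reverse, 4 members in all, where 9.09% of all tested ASVs met the rule.

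**Figure D3:**
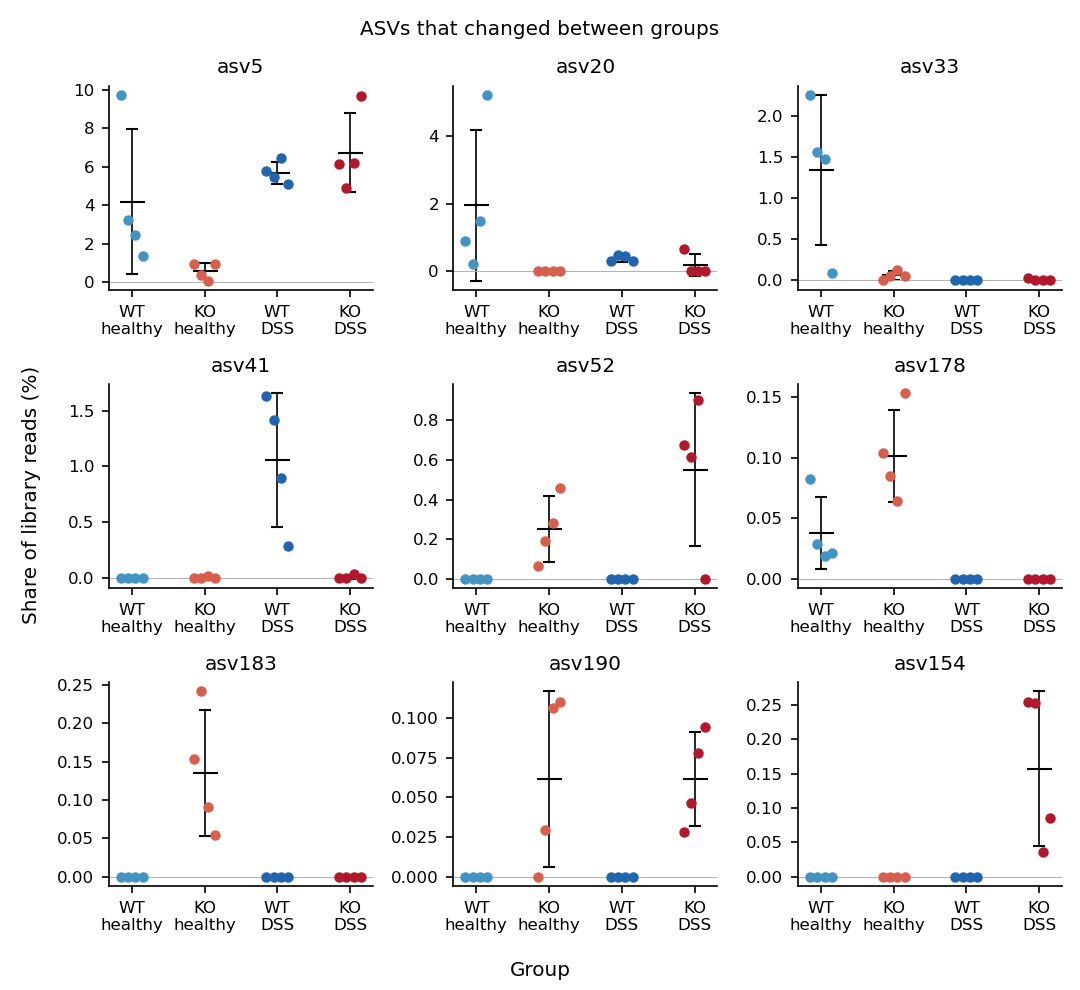
Share of library reads (%, linear axis with its own range in each panel) of 9 members in each library (points, 4 per group), with the group mean (horizontal mark) and SD (error bars). asv5 is low in healthy KO mice (mean 0.563%), asv41 is near 0 outside WT DSS mice (mean there 1.05%), and asv183 and asv154 have reads in 1 group each.

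In WT mice 6 members changed with DSS, in opposite directions, while the sum missed its test. Members asv41 and asv194 rose, and asv33, asv160, asv178 and asv229 fell (edgeR, 36 tested), against 4.55% higher and 12.7% lower among all tested ASVs (5.56% and 11.1% of tested members). The median log2 fold change was 0.53 over members and -0.54 over all tested ASVs. The 4th most abundant member of healthy WT mice, asv33, had 1349, 772, 949 and 54 reads there (1.34% ± 0.912) and none in the DSS WT libraries, a fall of at least 272-fold (edgeR adjusted p = 0.00788). In the opposite direction asv41, with no read in healthy WT libraries, reached the 1.05% given above, at least 208-fold higher (edgeR adjusted p = 0.00477). Both calls held without each of the 16 libraries in turn. In KO mice asv33 was scarce in health as well, with 0, 23, 73 and 29 reads, and had 21, 0, 0 and 0 with DSS. Between the healthy genotypes it was lower in KO but missed the threshold (log2 fold change -4.40, edgeR adjusted p = 0.172).

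Among rarer members the loss of asv229 was at least 17.9-fold (edgeR adjusted p = 0.0155). None of the healthy WT libraries could be left out for asv229, since it passed the filter through them alone. Leaving out libraries without its reads is no check of that call. For asv160 the healthy WT libraries had 119, 0, 26 and 36 reads and the DSS WT libraries none, at least 14.8-fold lower (edgeR adjusted p = 0.0174), at least 6.37-fold without WT healthy replicate 0. In a fit of the WT libraries alone asv160 missed the threshold (adjusted p = 0.0569). Healthy WT libraries had 49, 14, 12 and 14 reads of asv178, which was at least 7.58-fold lower with DSS (edgeR adjusted p = 0.00367), at least 4.59-fold without WT healthy replicate 0. The gain of asv194, from 0 to 6, 33, 55 and 46 reads, was at least 11.4-fold (edgeR adjusted p = 0.0352), a call lost without any of 7 libraries (the 4 healthy WT and WT DSS replicates 1, 2 and 3). The count of calls was 4 to 7 when each library was left out. The presence rule gave asv41 and asv194 in DSS and asv33, asv178 and asv229 in healthy WT mice, 5 members, against 10.7% of all tested ASVs.

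In KO mice the sum rose with DSS, asv5 gave the largest part of the gain, and the 6 members called lower, all rarer, were left without a read. Higher were asv5, asv20, asv80 and asv154, and lower asv89, asv160, asv178, asv183, asv211 and asv360 (edgeR, 10 of 36 tested). Over all tested ASVs 11% were called higher and 17.9% lower, against 11.1% and 16.7% of the tested members. The median log2 fold change was 0.18 over members and 0.00 over all tested ASVs. The count was 6 without KO healthy replicate 2 and 6 without KO DSS replicate 3.

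Of the rising members, asv20 went from no read in healthy KO libraries to 469, 0, 12 and 11 with DSS (0.176% ± 0.326), at least 32.3-fold (edgeR adjusted p = 0.00855). The size rested on KO DSS replicate 0, without which it was at least 2.43-fold, and the KO libraries fitted alone gave an adjusted p of 0.0615. The reads of asv80 went from 0 to 32, 19, 0 and 98, at least 11-fold (edgeR adjusted p = 0.0399), at least 4.76-fold without KO DSS replicate 3, and the call was lost without any 1 healthy KO library or KO DSS replicate 0 or 3. It also missed with limma (adjusted p = 0.0655) and relative to the family's reads (0.0561). For asv154 the rise was at least 28.8-fold (edgeR adjusted p = 0.00750).

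All 6 falling members had no read in any DSS KO library. The most abundant, asv89, had 0, 334, 170 and 395 reads in healthy KO libraries (0.418% ± 0.332) and was at least 84.5-fold lower (edgeR adjusted p = 0.0208). In the healthy KO libraries asv178 had 60, 43, 36 and 85 reads and asv160 had 74, 40, 40 and 33. With DSS asv178 was at least 20.5-fold lower (edgeR adjusted p = 0.00130), and asv160 at least 17.1-fold (edgeR adjusted p = 0.0109). For asv183 the fall was at least 27.3-fold (edgeR adjusted p = 0.00638). The calls of asv89, asv160 and asv178 held without each of the 16 libraries in turn. For asv183 none of the 4 healthy KO libraries could be left out, since it passed the filter through them alone. Leaving out libraries without its reads is no check of that call. Less firm were asv211, with 49, 0, 48 and 0 reads in healthy KO libraries (at least 8.60-fold, edgeR adjusted p = 0.0491, at least 5.71-fold without KO healthy replicate 2), and asv360, with 38, 8, 6 and 8 (at least 5.39-fold, edgeR adjusted p = 0.0325, at least 2.75-fold without KO healthy replicate 0). The first lost its call without any of 9 libraries, namely WT healthy replicates 1, 2 and 3, KO healthy replicates 0 and 2 and the 4 KO DSS libraries. The second lost it without any 1 of the 8 KO libraries. For asv211 the adjusted p was 0.0528 with RLE factors, 0.0612 by DESeq2, 0.175 by limma and 0.0839 with the KO libraries alone, and for asv360 it was 0.0922 by DESeq2 and 0.147 with no filter. By presence alone asv154 was gained and asv160, asv178, asv183, asv244 and asv360 were lost, 6 members, against 16.6% of all tested ASVs.

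Both asv160 and asv178 were called lower with DSS in both genotypes, the WT call of asv160 being lost when the WT libraries were fitted alone. They had reads in at least 7 of the 8 healthy libraries and in none of the 8 DSS libraries, and no member showed the reverse. In the same way asv52 and asv190 had reads in at least 7 of the 8 KO libraries and in none of the 8 WT libraries, and no member met this rule towards WT. However, asv173 had reads in all 8 WT libraries and missed the rule by 5 reads in KO healthy replicate 0. Between the healthy genotypes asv173 was lower in KO but missed the threshold (log2 fold change -4.89, edgeR adjusted p = 0.0845). Of all 69 members, 24 were seen in healthy mice only (2.96% of the family's reads), 14 in DSS mice only (1.16%), 26 in KO mice only (3.84%) and 11 in WT mice only (0.503%). Most of these were rare and too sparse to test. None of the counts in this paragraph was made over all ASVs. They therefore describe the members and do not show a trait particular to the family.

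The difference between the genotypes in their DSS response passed for 2 members, in opposite directions. For asv20 the interaction was 11.47 ± 2.76 on the log2 scale (edgeR adjusted p = 0.0468): its mean share went from 1.96% to 0.384% with DSS in WT mice and from 0 to 0.176% in KO mice. For asv41 it was -12.09 ± 2.92 (edgeR adjusted p = 0.0468), from 0 to 1.05% in WT and from 0.00399% to 0.00767% in KO mice. Since both rest on groups at 0, these fitted sizes, and the SEs worked back from them, depend on the prior count and are no bounds. Among all tested ASVs 3.25% were higher and 2.27% lower. Both calls were near the threshold. With TMMwsp factors the adjusted p was 0.0512 for each, and limma gave 0.0997 for asv20. Leaving out a library ended that of asv20 for 13 of the 16 libraries (7.48 to 12.14; all but KO DSS replicates 1, 2 and 3) and that of asv41 for 15 (-17.09 to -7.52; all but KO DSS replicate 2).

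**Figure D4:**
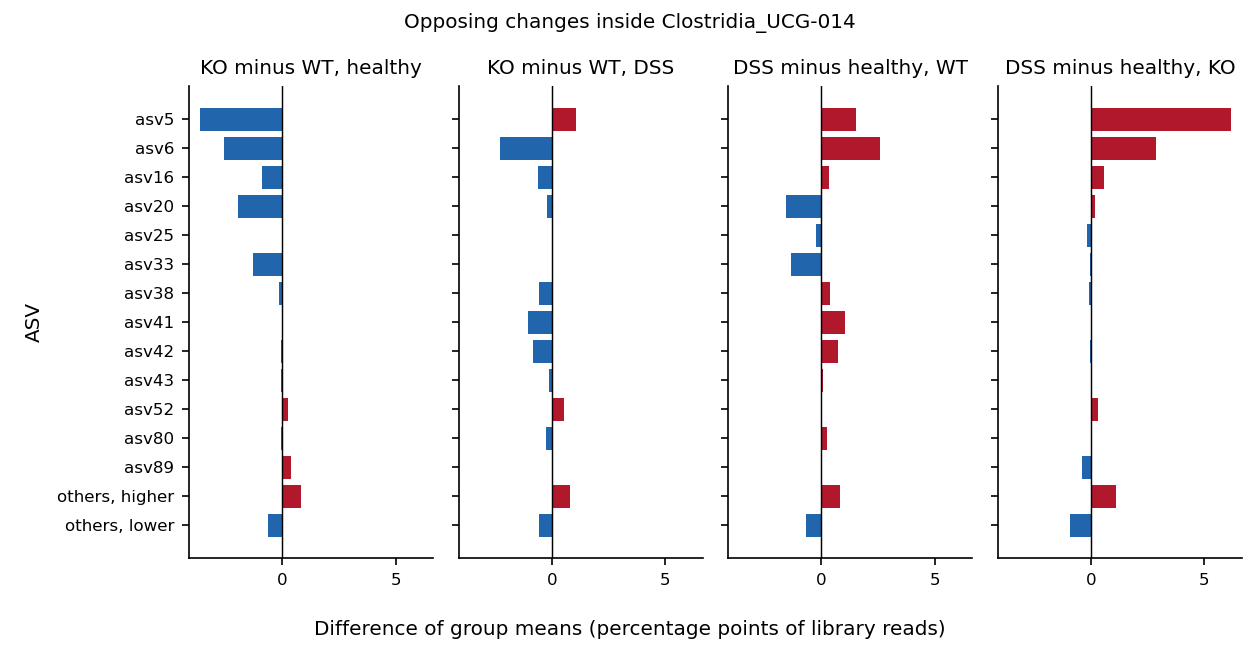
Difference of group means (percentage points of library reads, red for higher and blue for lower) for 13 members in each of the 4 comparisons, with the summed rises and the summed falls of all other members in the last pair of bars. The longest bars are those of asv5, at -3.63 points for KO minus WT in health and 6.18 points for DSS minus healthy in KO mice.

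Gains and losses of mean share were then added up separately. From healthy WT to healthy KO mice 29 members were lower, by -11.4 percentage points in sum, and 26 were higher by 1.45, a net -9.92 points. The largest loss was -3.63 points for asv5 and the largest gain 0.381 points for asv89. From healthy to DSS in KO mice 32 members gained 11.3 points, 6.18 of them in asv5, and 26 changed by -1.67, a net 9.63 points. In WT mice the movements offset each other more: 22 members gained 7.72 points, led by asv6 with 2.57, and 21 changed by -3.87, led by asv20 with -1.57, a net 3.85 points. Under DSS, 23 members were higher in KO than in WT mice by 2.43 points and 22 differed by -6.57, with asv5 at 1.04 and asv6 at -2.27 points. These sums are of means over 4 libraries and carry no test.

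The members that differed in presence were then summed as shares of the family's reads. This is a description, and the same was not done over all ASVs. With DSS in WT mice, the 16 members seen only in health made up 12.6% ± 4.74 of the family's reads in healthy libraries and the 7 seen only with DSS 6.49% ± 4.01 of those in DSS libraries. In KO mice the 22 lost members made up 22.9% ± 5.67 (16.4% to 29.4% over the healthy KO libraries) and the 15 gained members 6.58% ± 5.70. Under DSS the 9 members seen only in WT held 6.13% ± 7.11 and the 18 seen only in KO 10.2% ± 7.31.

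The composition of the family was also compared by Bray-Curtis distance on shares of the family's own reads (0 for identical, 1 for no overlap), as a description. Within groups the mean distance was 0.384 in healthy WT, 0.337 in healthy KO, 0.309 in DSS WT and 0.266 in DSS KO mice. Between groups it was 0.507 for the healthy genotypes, 0.353 for the genotypes with DSS, 0.414 for WT mice before and with DSS and 0.524 for KO mice before and with DSS. Without asv5 and asv6 the distances were 0.697, 0.612, 0.647 and 0.623 between those groups and 0.434 to 0.483 within groups. Libraries were thus more alike with the abundant pair than without it.

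Other Clostridia were counted in the same fit. Of 122 tested Lachnospiraceae ASVs, 4 rose and 25 fell with DSS in WT mice and 11 rose and 32 fell in KO mice. Of 28 tested Ruminococcaceae, 4 were lower in healthy KO than healthy WT mice, and 8 rose and 1 fell with DSS in KO mice. Of 50 tested Oscillospiraceae, 3 rose and 2 fell with DSS in KO mice, and of 24 tested Clostridia_vadinBB60_group ASVs 3 fell. The [Eubacterium]_coprostanoligenes_group, Christensenellaceae, Monoglobaceae, Butyricicoccaceae, Anaerovoracaceae and Peptococcaceae had 1 to 5 tested ASVs each, of which, with DSS in KO mice, 1 rose (Monoglobaceae) and 2 fell (1 of Butyricicoccaceae, 1 of Anaerovoracaceae). Clostridia_UCG-014, with 4 of 36 up and 6 down in that comparison, had calls in both directions in each of the 5 comparisons, as did Lachnospiraceae.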

How the data were processed

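Per the labels' protocols, a PowerSoil Pro kit was used on stool and V3-V4 amplicons were read on an Illumina MiSeq. Of tools, only cutadapt is named, per the submitters' processing notes. How reads were denoised and classified is not given in the sources used here. The feature table deposited by the authors holds read counts per ASV and library (whole numbers, not rarefied, with no single reads among the members), and the deposited taxonomy table gives the confidence of each assignment as a fraction.

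Members were the ASVs whose family is Clostridia_UCG-014. Members, lists and tests were chosen with earlier results of these data known. ASVs (308) and families (26) that had 5 reads or more in 4 libraries or more were tested in edgeR 4.0.16 (R 4.3.3): quasi-likelihood, TMM factors, all 16 libraries in 1 fit, 5 contrasts, Benjamini-Hochberg over all tested features, threshold 0.05. The fit was also run on simulated counts with known changes, and the outcome is not reported here. Those changes had fixed sizes, unlike the groups at 0 behind 25 of the 28 calls of members. ASVs without a family name went under the next named rank. A bound ("at least N-fold") is the mean share of the group with reads over the mean share that 3 reads per library give in the group without. Means are over 4 libraries ± SD. The SE of an edgeR log2 fold change was worked back from the test, as its absolute value over the square root of the F statistic. Named were the 10 most abundant members and every member past the threshold, 23 in all. asv51 and asv244 and the sequences under other observations are named beside them after their values were seen. DESeq2 1.42.0 and limma 3.58.1 were alternatives.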

Additional observations from a re-analysis of the deposited data

Results flagged for a closer look

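In 13 of the 70 groups of 4 libraries with any spread, the share of a named member in 1 library lay far from the other 3 by Dixon's ratio. Most are members seen in that library alone or at a few reads elsewhere. For normally distributed values chance flags about 1 in 20. A member with reads in 1 library of a group is always flagged, so 13 of 70 cannot be set against that rate. Among healthy WT libraries these were asv178 in replicate 0 (0.0819%, 49 reads) and asv360 in replicate 1 (0.0122%, 6 reads, the group's only ones). Among healthy KO libraries they were asv41 and asv42 in replicate 2 (0.0160% and 0.156%), and asv173, asv194 and asv360 in replicate 0 (0.00864%, 0.0709% and 0.0657%). Among DSS WT libraries they were asv80 in replicate 3 (1.15%, Wilson 95% interval 1.07% to 1.23%) and asv173 in replicate 0 (0.144%). Among DSS KO libraries they were asv20, asv33 and asv38 in replicate 0 (0.665%, 0.0298% and 0.249%) and asv41 in replicate 2 (0.0307%). The Wilson interval of asv20 in KO DSS replicate 0 ran from 0.607% to 0.727%, and the other 3 libraries had 0, 12 and 11 reads.

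The response to DSS was called different between WT and KO mice, by the edgeR interaction, for asv20 (11.47 on the log2 scale) and asv41 (-12.09), both with adjusted p = 0.0468. Both calls were near the threshold, rested on groups at 0 and were lost with TMMwsp factors. Leaving out 1 library ended that of asv20 for 13 of the 16 libraries and that of asv41 for 15.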

How the results depend on the processing

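No result reversed, but 25 of the 28 calls of members had a group at 0, where the direction could hardly turn. The lack of reversals is therefore no check of those calls. Of 783 values of single members' calls under the alternatives, 660 kept direction and call and 123 kept direction but lost the call, 31 of 327 when leave-one-out is set aside. The 783 include fits without libraries that lay outside the comparison or held no read of the member, which check little. Calls in healthy KO against WT were 6, with 10 by DESeq2, 11 by limma on centred log-ratios and 0 to 6 when each library was left out. In KO against WT under DSS they were 6, with 10 by limma, 11 with no filter and 3 to 7. DSS in WT had 6, with 11 by limma and 4 to 7, and DSS in KO 10, with 16 with no filter and 6 to 12. The interaction had 2, with 0 under TMMwsp factors (edgeR; 7 at an unadjusted p under 0.05), 5 by DESeq2, 7 by limma, 4 with no filter and 0 to 2 (5 to 8 at an unadjusted p where none passed). With the replicate block the counts were 1, 5, 2, 8 and 1. Same-numbered libraries deviated from their group means with correlations of -0.1752 to 0.0883, and 1 of 16 were closest to their own number. This cannot decide whether equal numbers mean equal animals. Some of these pairs set WT against KO mice, and the rest span the change with DSS. The family's value in healthy KO against WT passed with TMMwsp (-0.95), RLE (-0.84), total counts (-1.51), DESeq2 (-0.84), no filter (-1.21), only the groups compared (-1.02) and genera as rows (-1.27), and ranged from -1.63 to -0.59 over left-out libraries. In KO DSS it missed with limma (0.57), a filter of 20 reads (0.76) and only the groups compared (0.83), with 0.82 to 1.44. The interaction passed with total counts (1.16) and without KO healthy replicate 0 (1.18), with 0.29 to 1.19 over left-out libraries. KO against WT under DSS ran from -0.67 to -0.28 and DSS in WT from 0.24 to 0.76. Total counts moved the median ASV by -0.27, 0.14, -0.39, -0.03 and 0.36 (log2). The cause of these shifts was not tested. Members seen in 4 libraries (asv154, asv183, asv229) cannot be tested without any of them. Depth limits members under about 3 reads a library.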

Other observations

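Some sequences too sparse for a test were abundant where they occurred. asv146 had 424 reads and asv284 had 122 reads, all of them in KO DSS replicate 1, the DSS library with the lowest summed share of the family (9.43%). asv106 had 342 and 209 reads in WT healthy replicates 0 and 3, 188 in KO healthy replicate 3 and none in a DSS library. asv186 had 197, 31 and 63 reads in KO DSS replicates 0, 2 and 3 and no read elsewhere. The leading member of the family was asv6 in all 4 healthy KO libraries, with 20.3% to 32.4% of the family's reads, and asv5 in 3 of the 4 DSS KO libraries.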
